A study of Mus musculus with 6 samples.

Results

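The genes described here are the enzymes and regulators with which cells make cholesterol and fatty acids, measured in the mouse yolk sac with and without a disrupted Tnrc6a gene. Of 35 listed genes, 34 had a probe set annotated with their symbol alone, and the brightest by its mean over all 6 arrays stood for each gene. Acat2 is not analysed here. These 34 were among 14068 gene symbols tested, and all 34 passed the filter on dim probe sets. They comprise 17 sterol enzymes (7 of the mevalonate steps and 10 after squalene), 6 regulators and carriers, and 11 fatty acid enzymes.

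The mevalonate steps join acetyl-CoA units into farnesyl diphosphate and squalene, and the later steps close the rings and trim the sterol into cholesterol. Transcription of most of these enzymes is driven by the SREBP proteins, encoded by Srebf1 and Srebf2. Scap escorts the SREBP precursors from the endoplasmic reticulum for cleavage, and Insig1 and Insig2 hold them back when sterols are plentiful. Fatty acid synthesis starts from citrate, builds palmitate on fatty acid synthase, and then lengthens and desaturates it. In the yolk sac the visceral endoderm packs cholesterol and fatty acids into lipoproteins for the embryo.

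The samples were yolk sacs at E9.5, each dissected from an individual embryo: 3 from wild type littermates and 3 from embryos homozygous for a GW182 gt allele (GW182gt/gt). The labels name no tissue-specific promoter or Cre. Tnrc6a encodes GW182, which couples Argonaute and microRNAs to the silencing of target mRNAs. The genotype labels of both groups add "mixed", with no word on whether this refers to strain or sex. Total RNA was hybridised to Affymetrix Mouse Gene 1.0 ST arrays, and values are the authors' deposited signals on a log2 scale, so that a difference of 1 is a doubling. A whole yolk sac holds several cell types, and fewer cells of a type cannot be told apart from less RNA per cell.

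Tnrc6a read 7.62 to 8.40 in the wild types, 5.33 in mutant 2, 5.20 in mutant 3 and 7.81 in the library labelled mutant 1, whose level lies within the wild-type range and goes against its label. Array medians ran from 5.19 to 5.22. The visceral endoderm markers Afp and Ttr had wild-type means of 12.63 and 12.68, and the mean of 15 such markers ran from 10.62 to 10.70 in the wild types and from 10.59 to 10.81 in the mutants. Means of 10 mesenchyme markers ran from 8.80 to 9.79 and from 8.87 to 9.48, with wild type 2 the highest library. The mean of 9 erythroid markers stood at −0.71 relative to the wild-type mean in mutant 2, and at −0.076 to 0.057 on the other arrays. Of these 9, 4 (Hbb-y, Hba-x, Alas2 and Epor) were below all wild types in all mutants, against 3.38% of all tested probe sets. An unadjusted limma p under 0.05 was found for 2, Alas2 (difference −0.53) and Hbb-y (−0.25), against 1.28% lower, and 0 passed the adjusted test. Xist was high in wild type 1, the library labelled mutant 1 and mutant 3, and low in the other 3 libraries. The Y chromosome gene Eif2s3y went the other way, at 2.29 to 2.42 where Xist was high and 7.10 to 7.46 where it was low. By these genes the sexes were not evenly split between the genotypes.

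The sterol and fatty acid genes stood close to their wild-type levels in the mutants. None of the 34 genes passed limma at an adjusted p under 0.05 (adjusted p = 0.999 for each, over all 16387 tested probe sets), where 0% of all tested probe sets passed. At an unadjusted p under 0.05 there was 1 of 34, Dhcr7, which was lower in the mutants, against 3.53% of all tested probe sets in either direction and 1.28% lower. The genotypes did not overlap for 4 of 34 (11.8%), against 8.55% of all tested probe sets: Stard4 was above (1 gene, background 5.17%), and Dhcr7, Ebp and Fads2 were below (3 genes, background 3.38%). With each array centred on its median, 1 gene remained apart, Fads2, against 8.57% of all tested probe sets. The median log2 difference, mutant minus wild type, was −0.024 for the sterol enzymes, 0.033 for the regulators and carriers and 0.0073 for the fatty acid enzymes, against 0.0063 over all tested probe sets. Leaving out 1 array at a time moved these medians over 1.5 times: the sterol median ran from −0.068 without mutant 2 to −0.00085 without wild type 3, the regulator median from −0.0018 without wild type 1 to 0.10 without mutant 3, and the fatty acid median from −0.0055 without mutant 3 to 0.091 without wild type 2. The arrays bounded most differences between the labelled groups, with the library labelled mutant 1 counted as a mutant. If that label is wrong, the intervals do not bound the difference of true mutants from wild types. The 95% interval of the difference lay within 0.5 of 0 on the log2 scale for 32 of 34 genes, against 84.3% of all tested probe sets, and the 2 exceptions were Insig1 and Me1.

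**Figure D1:**
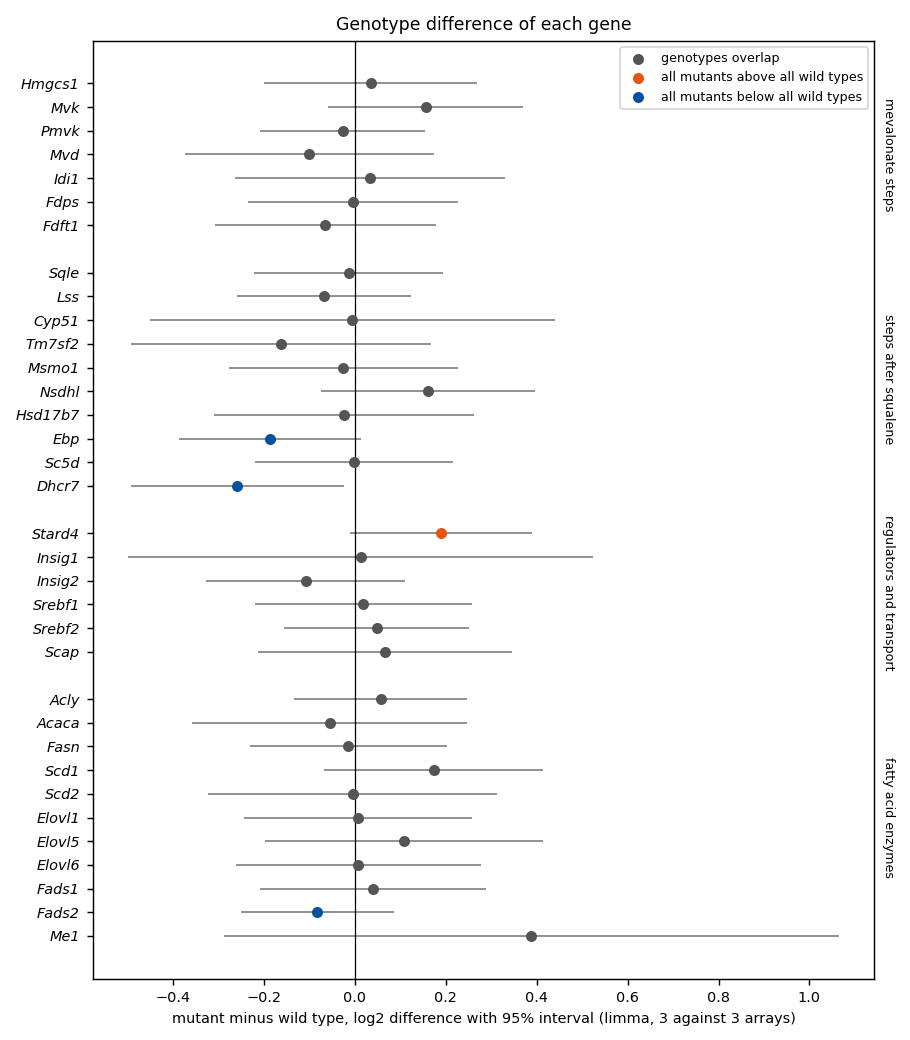
Genotype difference of each gene, mutant minus wild type, on a log2 scale (x axis), with the 95% interval from limma on 3 against 3 arrays; genes are grouped by role. The interval of Dhcr7 ends at −0.024, and the intervals of the other 33 genes include 0.

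Upstream sequences are shown for 5 genes named in the results below, and no expression value depends on them. Hmgcs1 carries a match to the pattern used here for the sterol response element, and Dhcr7 and Ebp were the sterol enzymes whose genotypes did not overlap. Insig1 and Cyp51 varied most within a genotype among the sterol genes. Each line gives the 150 bases before a RefSeq transcript start on GRCm38.p6, read 5′ to 3′ on the gene's strand. Capitals mark TCACNCC (alone or within TCACNCCAC, a pattern for the sterol response element), CACGTG (the E-box), CCAAT (the NF-Y site) and GGGCGG (the Sp1 site), on either strand. Stretches that depart from these letters were not searched for, so missing capitals do not show that an element is absent. Hmgcs1 lies at chr13:119690201-119690350 on the plus strand, Dhcr7 at chr7:143830064-143830213 on the plus strand, Ebp at chrX:8193513-8193662 on the minus strand, Insig1 at chr5:28071262-28071411 on the plus strand and Cyp51 at chr5:4104698-4104847 on the minus strand. Dhcr7 has 3 windows in the table, and that with the most matches is shown.
Hmgcs1: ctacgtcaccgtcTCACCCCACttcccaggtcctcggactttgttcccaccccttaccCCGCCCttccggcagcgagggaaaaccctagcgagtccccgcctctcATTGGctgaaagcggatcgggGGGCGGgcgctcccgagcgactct
Dhcr7: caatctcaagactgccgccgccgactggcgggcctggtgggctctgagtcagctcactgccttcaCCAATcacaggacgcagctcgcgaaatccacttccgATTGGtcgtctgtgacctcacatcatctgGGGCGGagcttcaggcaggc
Ebp: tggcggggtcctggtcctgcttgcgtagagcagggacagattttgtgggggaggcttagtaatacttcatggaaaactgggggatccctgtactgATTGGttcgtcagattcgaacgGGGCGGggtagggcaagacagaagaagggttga
Insig1: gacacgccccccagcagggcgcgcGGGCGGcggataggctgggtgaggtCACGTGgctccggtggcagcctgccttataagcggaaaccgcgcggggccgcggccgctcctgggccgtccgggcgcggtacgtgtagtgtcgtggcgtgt
Cyp51: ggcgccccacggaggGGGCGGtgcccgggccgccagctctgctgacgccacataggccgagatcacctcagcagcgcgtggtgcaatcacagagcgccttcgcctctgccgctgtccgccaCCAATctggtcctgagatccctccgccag
In the Hmgcs1 stretch the element TCACCCCAC starts 137 bases before the transcript start, with a CCAAT match 45 bases before that start. Dhcr7 has a pair of CCAAT matches, at 85 and 49 bases, and Ebp has a CCAAT match at 55 bases. Insig1 holds an E-box at 101 bases. Windows of 250 bases were found for 28 of the 35 listed genes, Acat2 included. CCAAT occurred in 60.5% of the 38 windows of these genes (22 of 28 genes), against 33.8% of all 32851 windows, and GGGCGG in 71.1% (23 of 28 genes) against 32.7%. CACGTG occurred in 15.8% against 6.02%, TCACNCC in 15.8% against 13.4% and TCACNCCAC in 2.63%, that of Hmgcs1, against 1.05%. These letter matches describe the windows and say nothing of binding in the yolk sac.

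The mevalonate steps stood at nearly the same level in both genotypes, with 3 of 7 genes higher and 4 lower and a range of differences from −0.10 to 0.16. Mvk, the kinase that phosphorylates mevalonate, read 7.11, 7.31 and 7.14 in wild types 1 to 3 and 7.41, 7.38 and 7.24 in the library labelled mutant 1, mutant 2 and mutant 3. It was 1.11-fold higher in the mutants (log2 difference 0.16, SE 0.092, 95% interval −0.059 to 0.37). Mutant 3 lay below wild type 2, so the groups overlapped. Mvd, the decarboxylase that yields isopentenyl diphosphate, read 6.82, 6.65 and 6.83 in the wild types and 6.79, 6.77 and 6.43 in the mutants, for a difference of −0.10 (SE 0.12). Mutant 3 was the low library. Without it, the difference of Mvd was 0.015.

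Fdft1, squalene synthase, read 8.59, 8.81 and 8.89 in the wild types and 8.73, 8.77 and 8.59 in the mutants (difference −0.065, SE 0.10), and its other probe set differed by −0.12. The lowest and the highest of the 6 values were both wild types. Hmgcs1, which makes the HMG-CoA that feeds the pathway and whose upstream sequence holds the TCACCCCAC element, is given in full for that sequence. It read 8.33, 8.51 and 8.44 in the wild types and 8.30, 8.53 and 8.56 in the mutants (difference 0.035, 95% interval −0.20 to 0.27). The library labelled mutant 1 was its lowest and mutant 3 its highest value. The others differed little: Pmvk, the next kinase, by −0.027, Idi1, the isomerase of isopentenyl diphosphate, by 0.033 (0.0092 at its other probe set), and Fdps, farnesyl diphosphate synthase, by −0.0042.

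**Figure D2:**
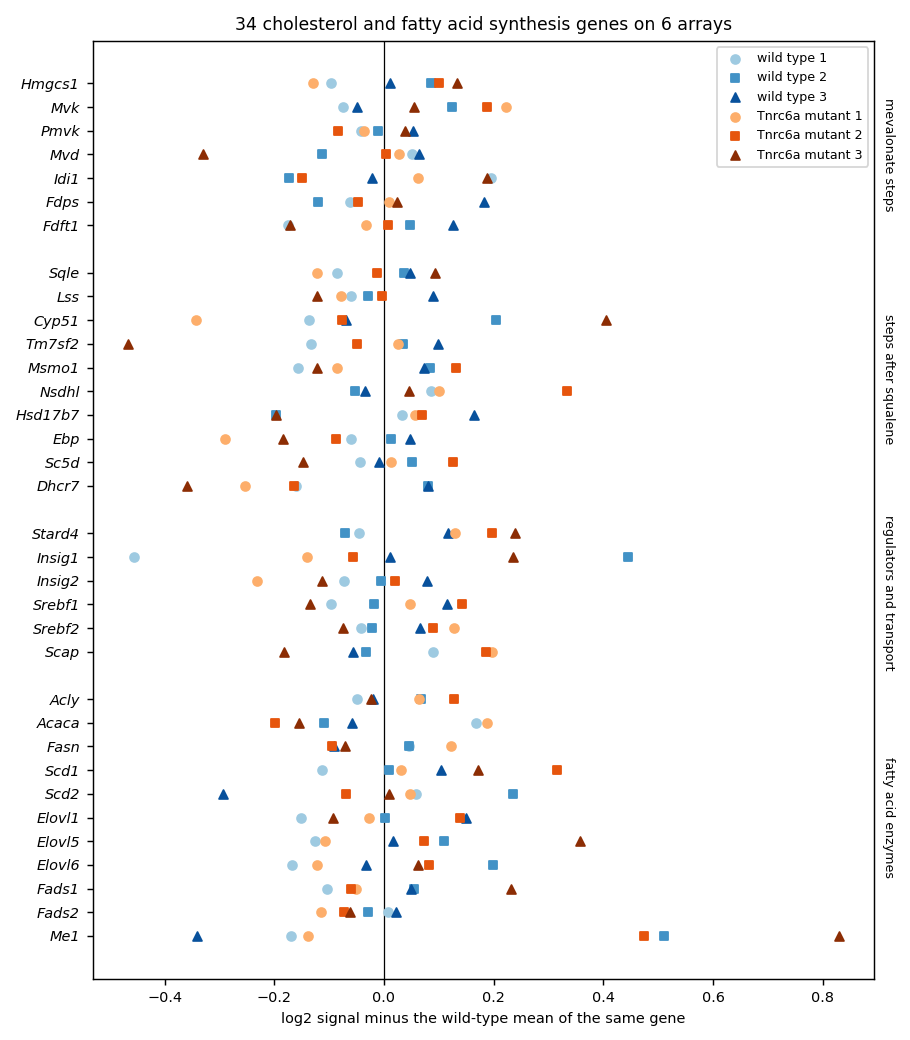
Log2 signal of each of the 34 genes on each array minus the wild-type mean of that gene (x axis), with genes grouped by role and arrays by colour and shape. Most genes spread little, while Me1, Insig1, Cyp51 and Tm7sf2 spread further, and arrays of both genotypes occur on each side.

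Of the 10 enzymes after squalene, 9 were lower in the mutants and 1, Nsdhl, higher, with a median difference of −0.024; over all tested probe sets 52.4% were higher. Dhcr7, the reductase that produces cholesterol in the last step, had the largest difference of these. It read 6.94, 7.18 and 7.18 in the wild types and 6.84, 6.93 and 6.74 in the mutants. All mutants lay below all wild types, though wild type 1 and mutant 2 nearly met. Its level was 1.20-fold lower (log2 difference −0.26, SE 0.10, 95% interval −0.49 to −0.024, limma adjusted p = 0.999). Without the library labelled mutant 1 the difference was −0.26, and over the 6 fits that left out 1 array it ran from −0.34 to −0.21. The unadjusted p stayed under 0.05 when wild type 1 or mutant 2 was left out and missed it when any other array was left out, with array weights, with the Xist covariate and with the methods' t-test.

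Ebp, the isomerase that shifts the sterol ring double bond, read 7.23, 7.31 and 7.34 in the wild types and 7.01, 7.21 and 7.11 in the mutants. The groups did not overlap, and mutant 2 came nearest to the wild types. The difference was −0.19 (SE 0.085, 95% interval −0.39 to 0.012), a 1.14-fold lower level, and −0.14 without the library labelled mutant 1. Ebp and Nsdhl lie on the X chromosome. With the Xist level as a covariate the differences were −0.15 for Ebp and 0.18 for Nsdhl.

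Nsdhl, given in full as the gene that went the other way and chosen after its values were seen, removes the carboxyl group at a demethylation step. It read 7.95, 7.81 and 7.83 in the wild types and 7.97, 8.20 and 7.91 in the mutants (difference 0.16, SE 0.10). Mutant 2 was the high library, and without it the difference was 0.073. Tm7sf2, a sterol reductase, read 6.46, 6.63 and 6.69 in the wild types and 6.62, 6.54 and 6.13 in the mutants (difference −0.16, SE 0.14). Mutant 3 again stood low, and without it the difference was −0.012.

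Cyp51, the lanosterol demethylase, is named for its spread, after its values were seen. It read 6.41, 6.75 and 6.48 in the wild types and 6.20, 6.47 and 6.95 in the mutants, so that its highest and lowest values were both mutants. The mean difference was −0.0055 (SE 0.19) and the within-genotype SD 0.30, at the 93.1st percentile of all tested probe sets. The other enzymes of these steps differed by −0.068 to −0.0028: Lss, which closes the rings to lanosterol, by −0.068, Msmo1, a methylsterol oxidase, by −0.025, Hsd17b7, a ketosterol reductase, by −0.024, Sqle, squalene epoxidase, by −0.014, and Sc5d, a desaturase, by −0.0028. Mutant 3 was the lowest array for 4 of the 10 genes (Lss, Tm7sf2, Sc5d and Dhcr7), against 17.4% of all tested probe sets. Wild type 3 was the highest array for 9 of the 17 sterol enzymes, against 19.1%. The count of 4 sterol enzymes higher in the mutants became 6 with array weights, 7 with the Xist covariate and 3 to 8 when 1 array was left out. Of the 13 lower ones, the 95% interval excluded 0 for Dhcr7 alone.

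**Figure D3:**
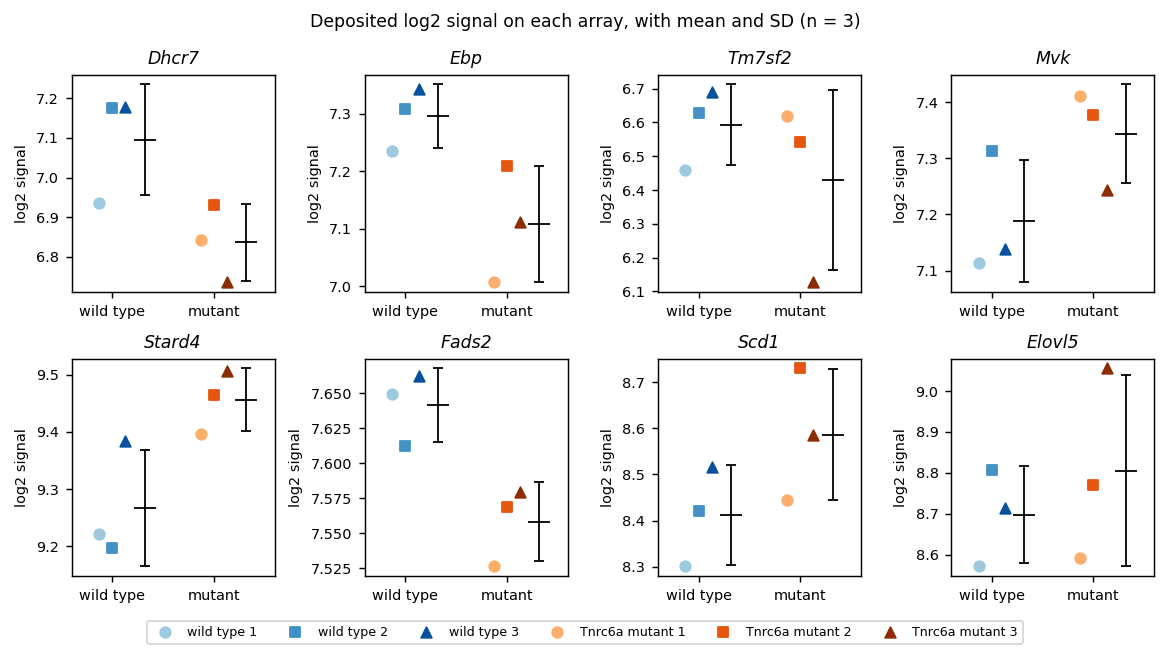
Log2 signal on each array (points, coloured by array) for 8 genes in wild type and mutant, with the mean and SD of each group (n = 3); the y axes differ and do not start at 0. The genotypes do not overlap for Dhcr7, Ebp, Stard4 and Fads2, and overlap for Tm7sf2, Mvk, Scd1 and Elovl5.

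Among the regulators and carriers, Stard4 was the only gene whose genotypes did not overlap. Mean differences of the SREBP system ran from −0.11 (Insig2) to 0.067 (Scap). That of Insig1 was poorly bounded (95% interval −0.50 to 0.52). Stard4, which carries cholesterol between membranes, read 9.22, 9.20 and 9.38 in the wild types and 9.40, 9.46 and 9.51 in the mutants. The library labelled mutant 1 and wild type 3 nearly touched. The difference was 0.19 (SE 0.086, 95% interval −0.011 to 0.39), a 1.14-fold higher level, and 0.22 without the library labelled mutant 1.

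Srebf2, the main regulator of the sterol enzymes, read 8.79, 8.81 and 8.90 in the wild types and 8.96, 8.92 and 8.76 in the mutants (difference 0.048, 95% interval −0.16 to 0.25). Srebf1, which leans to the fatty acid genes, read 7.39, 7.47 and 7.60 in the wild types and 7.54, 7.63 and 7.36 in the mutants (difference 0.018, 95% interval −0.22 to 0.26). Scap read 8.24, 8.12 and 8.09 in the wild types and 8.35, 8.33 and 7.97 in the mutants (difference 0.067, SE 0.12). In each of these 3 genes mutant 3 was the lowest of the 6 arrays, while mutant 2 and the library labelled mutant 1 were at or above the wild-type mean.

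Insig2 read 7.51, 7.58 and 7.66 in the wild types and 7.35, 7.60 and 7.47 in the mutants (difference −0.11, SE 0.094). Mutant 2 lay between the wild types. Insig1, itself a target of the SREBP proteins and with the E-box shown above, read 6.91, 7.81 and 7.37 in the wild types and 7.22, 7.31 and 7.60 in the mutants. Its range of 1.87-fold between wild type 1 and wild type 2 enclosed all 3 mutants. The mean difference was 0.013 (95% interval −0.50 to 0.52), and the within-genotype SD of 0.35 lay at the 95.6th percentile of all tested probe sets.

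The fatty acid enzymes were divided, with 7 of 11 higher and 4 lower. Me1, the malic enzyme that supplies NADPH, varied most of all 34 genes. It read 7.43, 8.11 and 7.25 in the wild types and 7.46, 8.07 and 8.43 in the mutants, a range of 2.25-fold. Wild type 2, mutant 2 and mutant 3 were high and the other libraries low, in both genotypes. The difference was 0.39 (SE 0.29, 95% interval −0.29 to 1.06), and 0.44 at its other probe set, which ranked the 6 arrays in the same order. The within-genotype SD was 0.47, at the 98.3rd percentile.

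The mean of the endothelium markers, like Me1, was highest in mutant 3, followed by wild type 2 and mutant 2. Single markers differed: Tek was highest in mutant 2, Sox7 in wild type 2 and the rest in mutant 3. For Kdr, Tek, Tie1 and Flt1 the library labelled mutant 1, which was low in Me1, stood above wild type 2. Relative to the wild-type mean, the 10 endothelium markers averaged −0.16, 0.27 and −0.11 in wild types 1 to 3 and 0.043, 0.21 and 0.44 in the library labelled mutant 1, mutant 2 and mutant 3. Their summed linear signal ran from 2078 to 2616 in the wild types and from 2415 to 3101 in the mutants. Of these 10 markers, 4 (Kdr, Tek, Tie1 and Flt1) were above all wild types in all mutants, against 5.17% of all tested probe sets. An unadjusted limma p under 0.05 was found for 3 of the 10, against 3.53% in either direction, and 0 passed the adjusted test. The 10 mesenchyme markers averaged −0.36, 0.62 and −0.26 in the wild types and −0.29, 0.31 and 0.16 in the mutants, so mutant 3, the highest library in Me1, lay below wild type 2 and mutant 2. Single mesenchyme markers differed there: in mutant 3 Tagln stood at 1.42 and Acta2 at 0.64, while Col1a1 stood at −0.50, Col1a2 at −0.59 and Col3a1 at −0.27. The 8 trophoblast and decidua markers averaged −0.25, 0.62 and −0.38 in the wild types and −0.45, 0.42 and −0.13 in the mutants. Of these 8, 3 were below the limit on dim probe sets. Their mean was below the wild-type mean in mutant 3, but 4 of the 8 stood above it there. Plac1 stood at 1.39 in mutant 3, while Prl4a1 stood at −1.24 and Prl8a2 at −1.14. In mutant 2 Prl8a2 stood at 4.07 and Plac1 at −0.32. The part of these cell types in the Me1 values was not tested. The Me1 difference was 0.64 without wild type 2 and 0.65 without the library labelled mutant 1, each with an unadjusted p under 0.05. It was 0.17 without mutant 3 and 0.22 without wild type 3, where the unadjusted p missed 0.05. With wild type 2 and the first mutant both left out it was 0.91 (limma adjusted p = 0.477, the lowest over its 17 alternatives). These are a high wild type and the low mutant, so leaving them out had to widen the difference. Insig1 and Cyp51 were also high in wild type 2 and mutant 3, but not in mutant 2. The mean of the endothelium markers was also highest in these 2 libraries, and the part of these cells in the Insig1 and Cyp51 values was not tested.

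**Figure D4:**
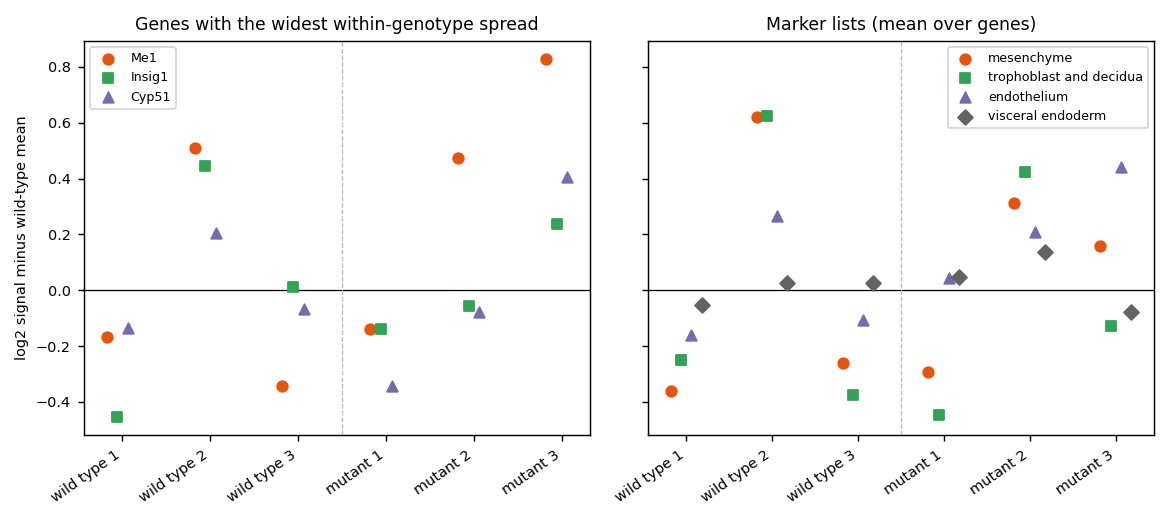
Log2 signal minus the wild-type mean on each array (x axis) for the 3 genes with the widest within-genotype spread (left) and for 4 lists of cell type markers, averaged over their genes (right). Me1 is above 0.4 in wild type 2, mutant 2 and mutant 3, where the endothelium list also has its 3 highest means, the mesenchyme list stands at 0.16 to 0.62, and visceral endoderm markers stay at −0.078 to 0.14.

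Scd1, a desaturase that makes oleate, read 8.30, 8.42 and 8.52 in the wild types and 8.44, 8.73 and 8.59 in the mutants (difference 0.17, SE 0.10, 95% interval −0.068 to 0.41). The library labelled mutant 1 lay below wild type 3, so the groups overlapped, and without it the difference was 0.24. With the Xist covariate it was 0.23, with an unadjusted p under 0.05. Scd2, the related desaturase and a separate probe set, had a difference of −0.0048 (SE 0.14), with its widest values, 9.90 and 10.43, both in the wild types. Fads2, which starts the desaturation of essential fatty acids, had the smallest within-genotype SD of the 34 genes, 0.027. It read 7.65, 7.61 and 7.66 in the wild types and 7.53, 7.57 and 7.58 in the mutants. All mutants were lower, by a mean of 1.06-fold (log2 difference −0.083, SE 0.072, 95% interval −0.25 to 0.085), and the difference was −0.067 without the library labelled mutant 1. The methods' t-test, which uses the gene's own spread alone, gave unadjusted p-values under 0.05 for Fads2, Ebp and Stard4 and not for Dhcr7. Fads1, its partner desaturase, differed by 0.040.

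Elovl5, which lengthens polyunsaturated chains, read 8.57, 8.81 and 8.71 in the wild types and 8.59, 8.77 and 9.06 in the mutants (difference 0.11, SE 0.13). Only mutant 3 lay above the wild types, and without it the difference was −0.017. Elovl6, which extends palmitate, differed by 0.0073, and Elovl1, which makes very long saturated chains, by 0.0063. Of the enzymes that build palmitate, Acly, which releases acetyl-CoA from citrate, differed by 0.056, Acaca, which makes malonyl-CoA, by −0.055 (−0.10 at its other probe set), and Fasn, fatty acid synthase, by −0.014. The 95% intervals of these 3 were −0.13 to 0.25, −0.36 to 0.25 and −0.23 to 0.20. Wild type 1 was the lowest array for 6 of the 11 fatty acid enzymes, against 17.5% of all tested probe sets.

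Other genes of both pathways were counted from a separate list. Of 12 further sterol genes tested, 8 were higher and 4 lower in the mutants, with a median difference of 0.036, and of 24 further fatty acid genes 12 were higher and 12 lower, with a median of −0.0093. None passed the adjusted test or had an unadjusted limma p under 0.05. Rdh11, a retinol dehydrogenase induced by SREBP, was below the wild types in all mutants: it read 8.28, 8.25 and 8.42 in the wild types and 8.18, 8.16 and 8.02 in the mutants (difference −0.20, SE 0.088). Thrsp, a nuclear factor of lipid synthesis genes, was above in all mutants, at 4.54, 4.44 and 4.65 in the wild types against 4.76, 4.82 and 4.67 (difference 0.21, SE 0.089). These were 1 of 12 and 1 of 24 genes, against 8.55% of all tested probe sets.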

How the data were processed

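Signals of 35557 probe sets on 6 Affymetrix Mouse Gene 1.0 ST arrays were analysed as the authors deposited them, on a log2 scale (0.66 to 13.7). MAS5 is the only tool in the submitters' processing notes; other steps (background, summary, normalization) are not stated, so their effect on differences between arrays is unknown. Groups came from sample titles. GEO's platform annotation supplied gene symbols, and 16387 annotated probe sets were tested, those whose mean reached the 30th percentile (4.29). The test between genotypes was limma's (version 3.58.1, R 4.3.3; lmFit, eBayes, no block; 4 residual and 3.47 prior degrees of freedom), Benjamini-Hochberg adjusted over all tested probe sets, threshold 0.05, and the code was tested on simulated data. The methods' t-test (threshold 0.05) was run as an alternative with equal variances. The number of arrays limits the precision (median SE 0.10). Genes with full values were those with an unadjusted p under 0.05 or non-overlapping genotypes, the 3 largest differences per role, and the SREBP regulators; Hmgcs1 (for its upstream element), Nsdhl and Cyp51 were added after their values were seen. The members, lists and markers were chosen with earlier results of these data known. Promoter windows are RefSeq sequences of GRCm38.p6; the bases before the start were searched on both strands.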

Additional observations from a re-analysis of the deposited data

How the results depend on the processing

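No gene of the 34 passed the adjusted threshold in any of 17 alternatives (lowest limma adjusted p = 0.477, for Me1 with both wild type 2 and the first mutant left out), and 13 genes kept their direction in all 17. Over all tested probe sets the alternatives made 0 calls, except 1, Tnrc6a, when that pair of libraries was left out. For Tnrc6a, wild type 2 (7.62) stood under the other wild types (8.40 and 8.29). The library labelled mutant 1 (7.81) stood over the other mutants (5.33 and 5.20). Dropping both therefore had to widen the Tnrc6a difference, and the call is not an independent test of that gene. Counts of the 34 with an unadjusted p under 0.05 were 3 after quantile normalization, 3 with the methods' t-test, 0 to 2 when 1 array was left out, and 1 in the others. That 1 gene was Mvk with array weights, Scd1 with the Xist covariate, Me1 without both libraries and Dhcr7 elsewhere. Over all 16387 tested probe sets the matching counts were 625 after quantile normalization, 627 with the methods' t-test and 395 to 1372 when 1 array was left out. In the others they ran from 422 of 11705 (50th percentile filter) to 1173 of 16387 (without both libraries). Genes whose genotypes did not overlap numbered 3 after quantile normalization (8.58% of all tested probe sets) and 1 after median centring (8.57%). They numbered 6 to 8 when 1 array was left out (14.2% to 27.5% of all tested probe sets) and 12 without both libraries (35.6%). The sterol median was −0.068 to −0.00085, the regulator median −0.0018 to 0.10 and the fatty acid median −0.0055 to 0.091 when 1 array was left out, and they were −0.057, −0.0043 and 0.087 without both libraries. The Xist covariate gave −0.0038, 0.075 and 0.067. Whether the replicate numbers pair the arrays, for example by litter, is not known. Same-numbered deviations correlated at 0.45, 0.15 and −0.11, and differently numbered ones at −0.45 to 0.24. With 3 arrays per genotype these values cannot settle it. With the replicate block the medians were −0.024, 0.033 and 0.0073, the calls 0, and the count of probe sets with an unadjusted p under 0.05 went from 579 to 727.

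Differences near 0 changed sign, and the cause was not tested. With the Xist covariate these were Idi1 (−0.062), Sqle (0.0059), Cyp51 (0.0068), Msmo1 (0.052) and Sc5d (0.041). With array weights they were Idi1 (−0.052), Msmo1 (0.033), Hsd17b7 (0.015), Sc5d (0.051) and Fads1 (−0.0011). After quantile normalization they were Fdps (0.0025), Sc5d (0.0035) and Scd2 (0.021). Without both libraries they were Idi1 (−0.068), Sqle (0.059), Cyp51 (0.27), Msmo1 (0.047), Sc5d (0.016), Srebf1 (−0.0050), Srebf2 (−0.0035), Scap (−0.015) and Scd2 (0.087). Leaving out 1 array at a time gave ranges of −0.014 to 0.12 for Hmgcs1, −0.060 to 0.00081 for Pmvk, −0.16 to 0.015 for Mvd, −0.054 to 0.13 for Idi1, −0.064 to 0.087 for Fdps and −0.067 to 0.040 for Sqle. They were −0.21 to 0.16 for Cyp51, −0.10 to 0.023 for Msmo1, −0.12 to 0.064 for Hsd17b7, −0.068 to 0.069 for Sc5d, −0.22 to 0.24 for Insig1 and −0.044 to 0.10 for Srebf1. For the fatty acid enzymes they were −0.18 to 0.029 (Acaca), −0.083 to 0.026 (Fasn), −0.15 to 0.11 (Scd2), −0.069 to 0.081 (Elovl1), −0.017 to 0.22 (Elovl5), −0.076 to 0.11 (Elovl6) and −0.056 to 0.090 (Fads1).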
